A study of Homo sapiens with 8 samples.

Results

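Translation initiation factors are the proteins that bring the ribosome and the initiator tRNA to the start codon of an mRNA. Genes were taken as members where a probe set of the deposited table was annotated to a single symbol beginning with EIF1 to EIF5, leaving out the eIF2 kinases named EIF2AK, and each gene was represented by its probe set with the highest mean log2 value over all 8 arrays. This gave 46 genes, read by 119 probe sets, of 19775 genes and 54675 probe sets in all. The cells were RL, an established human B lymphoma line with the translocation between chromosomes 14 and 18, kept for 14 days as multicellular aggregates called MALC and then sorted on pyronin Y, which stains RNA. Both groups shared the line, its translocation, the culture time and the staining. The 4 quiescent samples were sorted as pyronin Y dull and the 4 cycling samples as pyronin Y bright, so the groups were themselves chosen on RNA content. RL is 1 line. No label tells whether the 4 samples of a group were grown apart, and p-values thus reflect only how these samples vary, a spread that may be technical. The precision is limited by the number of arrays.

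The authors' MAS5 intensities, already scaled to a common mean on each array, are relative to the other transcripts on that array and are not amounts per cell. In these bulk samples fewer cells of a kind and less RNA per cell cannot be told apart. B cell markers were present in both fractions, with CD79A, CD79B, CD22, PAX5 and MS4A1 measured and a summed intensity of 51250 to 61831 on cycling and 51025 to 62458 on quiescent arrays. The sums over 3 T cell, 2 monocyte and 3 fibroblast markers were at most 414.4 on any array. Sums over MKI67, TOP2A, CCNB1 and PCNA ran from 19220 to 24192 on cycling and from 4359.5 to 5860.5 on quiescent arrays. ACTB is read by control probe sets at both ends of its mRNA, and 3′ signal over 5′ signal, which reports on RNA quality, was on the log2 scale 2.02 ± 0.20 (SD, n = 4) on cycling and 2.57 ± 0.18 (SD, n = 4) on quiescent arrays (two-sided exact permutation p = 0.0286, the smallest that 70 assignments allow). The same ratio of GAPDH was −0.046 ± 0.088 (SD, n = 4) and 0.11 ± 0.02 (SD, n = 4), with the same exact p of 0.0286. These ratios differed between the same arrays as every comparison below, and their part in them was not tested. Over all 11678 genes tested, each array correlated better with its own group than with the other, and cycling sample 2 lay closest to the other group, with a mean correlation of 0.945 against 0.913 to 0.932 for the other cycling arrays.

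Initiation begins when eIF2, loaded with GTP and the initiator tRNA, joins the small ribosomal subunit together with eIF1, eIF1A, eIF3 and eIF5. The eIF4 proteins bind the mRNA cap and unwind the leader so that this complex can load and scan, and eIF2B recharges eIF2 with GTP for the next round. Cells restrain the pathway at a pair of steps, by kinases that phosphorylate eIF2 and so block eIF2B, and by 4E-binding proteins that hold eIF4E away from eIF4G until the mTORC1 kinase releases them.

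Initiation factor genes were more often lower than higher in quiescent cells. Of the 46 genes, 43 passed the filter on dim genes (a mean log2 value at or above that of a typical probe set, the median of those that are not controls, which corresponds to 83.3 in intensity) and were tested. At a limma adjusted p under 0.05, taken over all genes tested, 15 were lower and 2 were higher. This is 34.9% of those tested lower and 4.7% higher, against 15.4% of all genes called lower and 12.2% called higher. Of those tested, EIF3J-DT and EIF1B-AS1 are noncoding transcripts, and EIF3J-DT is 1 of the 2 higher. Over the 41 protein-coding members tested, 15 were lower and 1 was higher, or 36.6% and 2.4%. The median log2 difference, quiescent minus cycling, was −0.24 over the members and 0.081 over all genes. Among the 42 tested members whose levels are given here, the groups did not overlap in 14 with all quiescent arrays below and in 3 with all quiescent arrays above, where 15.4% and 13.3% of all genes tested had such groups. With 1 array left out the number higher was 1, EIF3J-DT, in 7 of the 8 analyses and 3 without quiescent sample 2. EIF1AY, a Y-linked gene, was part of the fit and the counts, and its levels are not given.

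The scale of the arrays moved these counts, because centring each array on its median shifts every log2 difference by −0.41, in this set as in all genes. After median centring 33 of the 43 were lower and 0 higher, with 32.5% of all genes lower and 2.8% higher. The median was −0.66, against −0.33 for all genes. At an unadjusted p under 0.05 in limma 1 was higher, the noncoding EIF3J-DT. After quantile normalization 12 were lower and 3 higher (a median of −0.16, against −0.038), with 16.4% and 10.5% of all genes. The 3 were EIF3E, EIF3H and the noncoding EIF3J-DT. In all 3 scalings 12 members were called lower and 0 higher, where 1647 and 320 of all 11678 genes tested were. The 12 are EIF1AX, EIF2S1, EIF2B2, EIF2B3, EIF3I, EIF3J, EIF3K, EIF4E, EIF4E2, EIF4G1, EIF4EBP1 and EIF5A, and 10 of them also passed when any 1 array was left out, the exceptions being EIF4E and EIF4EBP1. Values below are in the deposited scaling unless another is named.

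**Figure D1:**
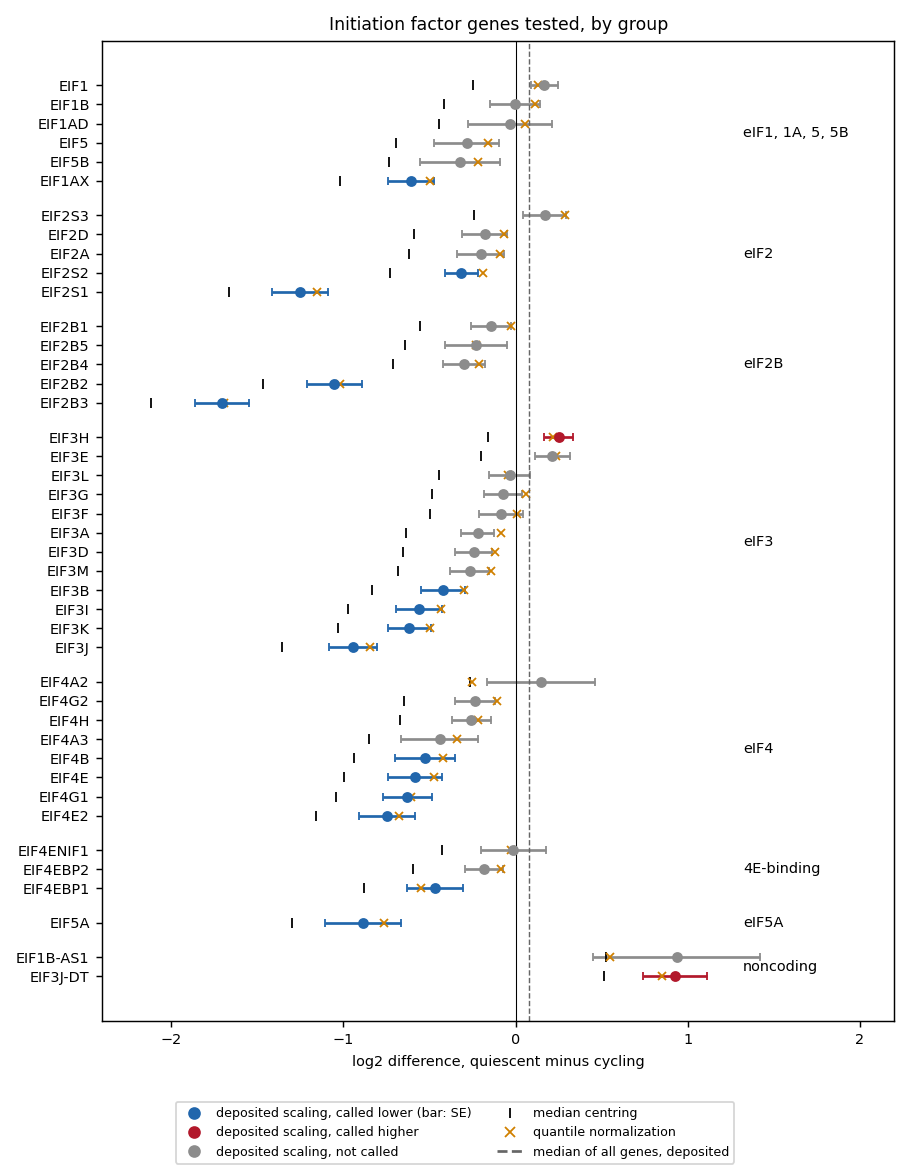
Log2 difference (quiescent minus cycling, 4 arrays each) of the 42 tested members whose levels are given, by group. Circles are the deposited scaling with the SE as bars, blue where called lower, red where called higher and grey where not called at a limma adjusted p of 0.05. Ticks are median centring, crosses quantile normalization, and the dashed line the median of all genes at 0.081. EIF2B3, EIF2S1 and EIF2B2 lie farthest to the left.

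Of the eIF2 genes, the alpha subunit fell most. EIF2S1, which encodes the alpha subunit that the eIF2 kinases phosphorylate, measured 6169, 4729.6, 6578 and 4866 on the cycling arrays of samples 1 to 4 and 2579, 2881, 1999 and 1962 on the quiescent arrays. All quiescent arrays lay below all cycling arrays, and the mean went from 5586 ± 927 (SD, n = 4) to 2355 ± 450.1 (SD, n = 4), or to 42.2% (log2 difference −1.25, SE 0.16, limma adjusted p = 1.59e-04). EIF2S2, the beta subunit, measured 11103, 10175, 11608 and 10871 on cycling and 9141, 8754, 9275 and 8019 on quiescent arrays. These groups did not overlap either, but the difference was small (log2 difference −0.32, SE 0.10, limma adjusted p = 0.0289). It did not pass after quantile normalization (adjusted p = 0.129) or without cycling sample 1, 3 or 4 or quiescent sample 3 or 4. Nor did it pass by eBayes without trend and robust (limma adjusted p = 0.0817) or with the mean over probe sets (limma adjusted p = 0.0631). The dimmer probe set of EIF2S2 differed by −0.52 and was not called (limma adjusted p = 0.142, here over all probe sets). EIF2S3, the gamma subunit that binds GTP and the tRNA, measured 7187, 6919.7, 7502 and 6906 on cycling and 8825, 9459, 7339 and 6708 on quiescent arrays, with overlapping groups (log2 difference 0.17, SE 0.12, limma adjusted p = 0.33).

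Within each array the array scale cancels, so the log2 difference between EIF2S1 and EIF2S3, each at its chosen probe set, can be set side by side. It was −0.22, −0.55, −0.19 and −0.51 on cycling and −1.78, −1.72, −1.88 and −1.77 on quiescent arrays. Every quiescent array lay well below every cycling array. This pair was chosen after its values were seen, so no test is given. EIF2A and EIF2D, which are not subunits of eIF2 but can deliver tRNA to the ribosome, differed by −0.20 and −0.18 on the log2 scale, without passing. Of the 5 eIF2 genes tested 2 were lower (40.0%, against 15.4% of all genes), and 4 were after median centring (80.0%, against 32.5%). The fall of EIF2S1 rests on 1 of its 3 probe sets. The other probe sets of the gene, at cycling intensities of 1723 and 863, had log2 differences of −0.14 and −0.0058 and were not called, and the mean over its probe sets differed by −0.47 (limma adjusted p = 0.0141). The other probe sets of EIF2S3 differed by 0.12 and −0.27 and were not called, so the contrast with EIF2S3 rests on that 1 probe set of EIF2S1.

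The eIF2B complex, the exchange factor that reloads eIF2 with GTP, has regulatory subunits encoded by EIF2B1, EIF2B2 and EIF2B4 and catalytic subunits encoded by EIF2B3 and EIF2B5. Of the 5 genes, 2 fell, 1 of each kind (40.0%, against 15.4% of all genes). EIF2B3, the gamma subunit, measured 3001, 2005, 2563 and 2971 on cycling and 756, 897, 709 and 844 on quiescent arrays, and its mean went from 2635 ± 465 (SD, n = 4) to 801 ± 84.6 (SD, n = 4) (log2 difference −1.70, SE 0.16, limma adjusted p = 1.40e-05). Its quiescent arrays were at 30.4% of the cycling mean, the largest decrease among the members tested. EIF2B2, the beta subunit, measured 3299.8, 2372, 2404 and 2618 on cycling and 1468, 1483, 1187 and 1028 on quiescent arrays, a fall to 48.3% (log2 difference −1.05, SE 0.16, limma adjusted p = 4.67e-04). Both kept groups that did not overlap. Groups of EIF2B1, EIF2B4 and EIF2B5 overlapped, at log2 differences of −0.14, −0.30 and −0.23, and these genes were not called. All 5 were called lower after median centring, where 32.5% of all genes were. Within each array, EIF2B3 minus EIF2B1 on the log2 scale was −0.82, −1.37, −1.07 and −0.81 on cycling and −2.92, −2.42, −2.63 and −2.36 on quiescent arrays, again a pair chosen after its values were seen. EIF2B1, EIF2B2 and EIF2B3 each have 1 probe set, and no other probe set checks them.

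**Figure D2:**
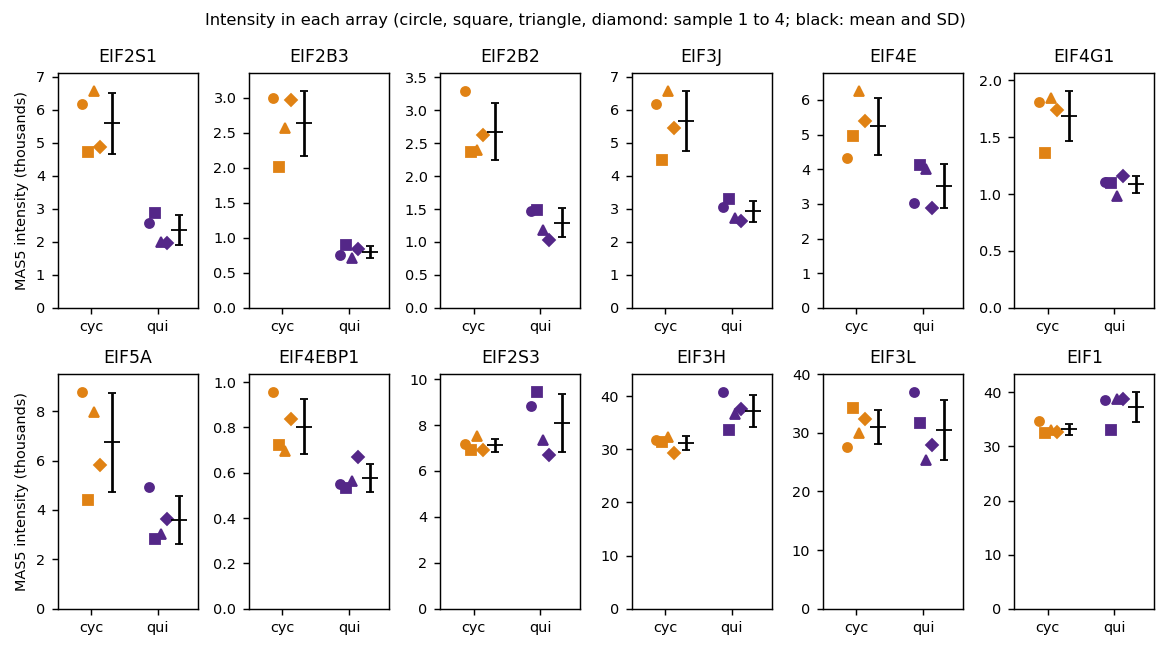
MAS5 intensity (scaled down as its axis label states) on each of the 8 arrays for 12 members, cycling (cyc, orange) and quiescent (qui, purple), with sample 1 to 4 as circle, square, triangle and diamond and the mean and SD (n = 4) in black. The quiescent arrays of EIF2S1, EIF2B3, EIF2B2 and EIF3J lie below all cycling arrays, whereas those of EIF2S3 and EIF3L overlap them and those of EIF3H lie above.

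The eIF3 complex is a large scaffold on the small ribosomal subunit. Of its 12 genes tested, 4 fell, 1 rose and 7 did not pass, with a median of −0.23 against 0.081 for all genes. The shares were 33.3% lower and 8.3% higher, against 15.4% and 12.2% of all genes. After median centring 10 were lower, where 32.5% of all genes were, and after quantile normalization 3 were lower and 2 higher. EIF3J, a loosely bound subunit that acts at the decoding site, measured 6169, 4471, 6567 and 5443 on cycling and 3065, 3297, 2719 and 2618 on quiescent arrays. It fell to 51.7% with groups that did not overlap (log2 difference −0.94, SE 0.14, limma adjusted p = 4.29e-04), and its dimmer probe set fell by 0.57 on the log2 scale (limma adjusted p = 0.00648, here over all probe sets). EIF3K measured 7139.6, 5824, 6305 and 6782 on cycling and 5181, 3816, 3931 and 4139.6 on quiescent arrays, a fall to 65.5% (log2 difference −0.62, SE 0.13, limma adjusted p = 0.00324). Of its 4 probe sets 3 were called lower. EIF3I, a WD repeat subunit, measured 10626, 8656, 9589 and 9684 on cycling and 8551, 6282, 5966 and 5634 on quiescent arrays, a fall to 68.6% (log2 difference −0.56, SE 0.14, limma adjusted p = 0.00834).

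EIF3B, a scaffold subunit with an RNA recognition motif, fell by 0.42 on the log2 scale (limma adjusted p = 0.0265), but not after quantile normalization (adjusted p = 0.0553) and not without cycling sample 1 or 3 or quiescent sample 2, 3 or 4. Its 6 probe sets disagreed. The 3 with cycling intensities of 5727 and more had log2 differences of −0.42, −0.33 and −0.69, and 2 dimmer ones were called higher, at 0.74 and 0.53 (limma adjusted p = 0.0186 and 0.0247). The mean over all its probe sets differed by 0.10 in the opposite direction and did not pass.

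The other eIF3 subunits had log2 differences between −0.27 and 0.25. EIF3H, a subunit with an MPN domain, was the 1 that rose. It measured 31821, 31292, 32326 and 29311 on cycling and 40877, 33565, 36628 and 37518 on quiescent arrays, and all quiescent arrays lay above all cycling arrays (log2 difference 0.25, SE 0.08, limma adjusted p = 0.0383). That call was lost after median centring, where the difference was −0.16 (adjusted p = 0.416), and in 7 of the 8 analyses that left out 1 array, all but the one without quiescent sample 2. EIF3E, which encodes a subunit also known as INT6, measured 29782, 28247, 28731 and 25023 on cycling and 38796, 30392, 28919.9 and 31924 on quiescent arrays, with overlapping groups (log2 difference 0.21, SE 0.10, limma adjusted p = 0.141), and was called higher after quantile normalization only (adjusted p = 0.0497). EIF3A, the largest scaffold subunit, measured 12769, 12131, 13248 and 13384 on cycling and 10652, 12610.0, 10609 and 10438 on quiescent arrays. Quiescent sample 2 lay within the cycling range and the other quiescent arrays below it (log2 difference −0.22, SE 0.10, limma adjusted p = 0.111). EIF3L, EIF3G and EIF3F had log2 differences of −0.035, −0.074 and −0.085, and EIF3D and EIF3M −0.24 and −0.27, and none passed. EIF3D had groups that did not overlap all the same. Within each array, EIF3J minus EIF3H on the log2 scale was −2.37, −2.81, −2.30 and −2.43 on cycling and −3.74, −3.35, −3.75 and −3.84 on quiescent arrays, a pair chosen after its values were seen. EIF3C was read by 1 dim probe set with a single symbol, which did not pass the filter (55.5 ± 17.0 on cycling and 109 ± 14.8 on quiescent arrays), and its further probe sets were listed with its near-identical copy EIF3CL as well.

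The divergent noncoding transcript next to EIF3J moved the other way from its neighbour. EIF3J-DT, annotated to start 224 or 247 bases from EIF3J on the other strand in RefSeq (GRCh38.p14), measured 397, 619.9, 519 and 559.6 on cycling and 1022, 842, 1248 and 871 on quiescent arrays. It rose to 190% of the cycling mean with groups that did not overlap (log2 difference 0.93, SE 0.19, limma adjusted p = 0.00274), and did not pass after median centring (adjusted p = 0.0594). EIF1B-AS1, annotated to start 9 bases from EIF1B, was dim. Its mean was 89.6 ± 45.5 (SD, n = 4) in cycling and 145 ± 18.5 (SD, n = 4) in quiescent cells, and it did not pass (log2 difference 0.94, SE 0.48, limma adjusted p = 0.169). Without cycling sample 4, at 23.9 the lowest array, the difference was 0.38, and it was 0.55 after quantile normalization and 0.52 after median centring.

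Of 8 eIF4 genes tested, 4 fell and none rose (0 also at an unadjusted p under 0.05 in limma), with a median of −0.48. Over all genes tested 15.4% fell and 12.2% rose. After median centring 7 were lower, where 32.5% of all genes were, and without cycling sample 3 only 2 were. EIF4E, the protein that binds the mRNA cap, measured 4327, 4968, 6269.5 and 5384 on cycling and 3026, 4114, 3994 and 2888 on quiescent arrays. Its groups did not overlap and the mean fell to 66.9% (log2 difference −0.58, SE 0.16, limma adjusted p = 0.0138), though not without cycling sample 3. Of its 4 probe sets that passed the filter 3 were called lower, with log2 differences of −0.84 and −0.66 besides the chosen one. The dimmest of the 4 differed by 0.058 and was not called. EIF4E2, the cap-binding homolog called 4EHP that acts in repression, measured 3785, 3083, 3691 and 3342 on cycling and 2718, 2283, 1821 and 1607 on quiescent arrays, a fall to 60.6% (log2 difference −0.75, SE 0.16, limma adjusted p = 0.00477). Of its 3 other probe sets 1 was called lower (−0.50), and 2 were not called, at −0.24 and 0.32. EIF4G1, the scaffold that joins the cap-binding protein to eIF3 and the poly(A)-binding protein, measured 1806, 1361, 1844 and 1741 on cycling and 1102, 1101, 981 and 1161 on quiescent arrays, a fall to 64.4% (log2 difference −0.63, SE 0.14, limma adjusted p = 0.00532). Both of its probe sets were called lower. With the mean over each gene's probe sets EIF4G1 was the 1 eIF4 gene of 8 called lower, and EIF4E and EIF4E2 did not pass, at −0.14 and −0.29 (limma adjusted p = 0.689 and 0.108). That mean also takes in probe sets below the filter, for EIF4E 1 at 12.8 on cycling and 34.7 on quiescent arrays.

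EIF4B, a helper of the eIF4A helicase, fell at its chosen probe set (log2 difference −0.53, SE 0.17, limma adjusted p = 0.0378), with quiescent sample 1 inside the cycling range. Its other probe sets differed by 0.034 and −0.079 and were not called, and the call was lost after quantile normalization (adjusted p = 0.0572) and without any 1 of 6 arrays. EIF4H, EIF4G2 and EIF4A3, the last a part of the exon junction complex, were not called, at log2 differences of −0.26, −0.23 and −0.44. The helicase genes could not be followed well. EIF4A1 is not analysed here, because each probe set listed with it carries further symbols. EIF4A2 was read by 1 probe set with a single symbol, which lay near the filter at 107, 117, 103 and 80.8 on cycling and 87.5, 134, 120.0 and 112 on quiescent arrays, with overlapping groups (log2 difference 0.15, SE 0.31, limma adjusted p = 0.755). EIF4E3 did not pass the filter, with intensities of 10.2 to 86.5 over the 8 arrays. EIF4G3 and EIF4EBP3 were not analysed here.

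None of the 3 genes for 4E-binding proteins was called higher in quiescent cells in the deposited scaling (0 at a limma adjusted p under 0.05 and 0 unadjusted), nor after median centring or quantile normalization (0 and 0 in each). Over all genes tested 12.2%, 2.8% and 10.5% were called higher in these scalings. EIF4EBP1, the repressor that mTORC1 phosphorylates, fell. It measured 958, 721, 695 and 839 on cycling and 549, 533, 562 and 668 on quiescent arrays, with groups that did not overlap (log2 difference −0.47, SE 0.16, limma adjusted p = 0.0473), and passed in 2 of the 8 analyses that left out 1 array, those without cycling sample 2 or quiescent sample 4. EIF4EBP2, a closely related repressor, measured 4267, 3879, 3888 and 3833 on cycling and 3752, 3475, 3251 and 3525 on quiescent arrays, with all quiescent arrays lower at the chosen probe set (log2 difference −0.18, SE 0.11, limma adjusted p = 0.242). Another of its probe sets was called higher (0.43, limma adjusted p = 0.0491), and 2 more were not called, at 0.050 and 0.12. EIF4ENIF1, the transporter that carries eIF4E to the nucleus, had a log2 difference of −0.015 (SE 0.19).

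For 4 pairs of related genes with both members above the filter, the per-array log2 difference between them was compared between groups by a two-sided exact permutation test, in which the array scale cancels. EIF4G2, an eIF4G homolog that lacks the eIF4E-binding part, minus EIF4G1 was 2.29, 2.51, 2.23 and 2.47 on cycling and 2.53, 2.93, 2.99 and 2.62 on quiescent arrays, with no overlap. The mean was 0.39 higher in quiescent cells (exact p = 0.0286, the smallest possible, and 0.114 adjusted over 4 pairs). EIF4EBP2 minus EIF4EBP1 was 0.29 higher with overlapping groups (exact p = 0.0857, adjusted 0.171), EIF4E2 minus EIF4E was −0.16 (exact p = 0.486, adjusted 0.486) and EIF1B minus EIF1 −0.17 (exact p = 0.429, adjusted 0.486). None passed after adjustment. With the mean over each gene's probe sets the differences were 0.87 for EIF4G2 minus EIF4G1, 0.79 for EIF4EBP2 minus EIF4EBP1 and 0.28, the opposite sign, for EIF1B minus EIF1, and none passed there either (lowest adjusted exact p = 0.229). These means take in probe sets of EIF4G2, EIF4EBP2 and EIF1B below the filter, at mean cycling intensities of 19.7 to 62.1. The other 4 pairs planned, which involve EIF4A1, EIF4E3, EIF4G3 and EIF5A2, were not measured.

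Among the genes grouped here under start-site selection and subunit joining, 1 of 7 tested was lower (14.3%, against 15.4% of all genes). Membership went by symbol, and whether EIF1AD acts in these steps was not tested. EIF1AX, which encodes eIF1A, measured 5661, 4656, 4629 and 5100.0 on cycling and 3118, 3715, 3683 and 2721 on quiescent arrays, a fall to 66% with groups that did not overlap (log2 difference −0.61, SE 0.13, limma adjusted p = 0.00492). Its 4 probe sets ran from −1.21, called lower, to −0.016, not called. EIF1, which guards against wrong start codons, measured 34665, 32424, 32976 and 32674 on cycling and 38514, 33101, 38839 and 38873 on quiescent arrays (log2 difference 0.17, SE 0.08, limma adjusted p = 0.14). On 3 quiescent arrays it lay above all cycling arrays, and quiescent sample 2 lay among them. Of the 7 probe sets of EIF1, 1 dimmer one was called lower (−0.76). EIF1B and EIF1AD had log2 differences of −0.0039 and −0.032. The other probe set of EIF1AD, dimmer at a cycling intensity of 779, was called lower (−0.64, limma adjusted p = 0.0293, here over all probe sets). EIF5, which triggers GTP hydrolysis on eIF2, and EIF5B, which joins the large subunit, had −0.28 and −0.32 with overlapping groups. For EIF5B 1 of 6 probe sets, not the chosen one, was called lower (−0.52, limma adjusted p = 0.0205, here over all probe sets). EIF1, EIF1B, EIF1AD, EIF5 and EIF5B did not pass at the chosen probe set.

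EIF5A, named as an initiation factor but known to help the ribosome through difficult peptide bonds, measured 8791, 4388, 7968 and 5802 on cycling and 4937, 2811, 3011 and 3643 on quiescent arrays. It fell to 53.4% (log2 difference −0.89, SE 0.22, limma adjusted p = 0.0099), while quiescent sample 1 lay above cycling sample 2. All 3 of its probe sets were called lower, by −0.90 to −0.78. EIF5A2, its paralog, did not pass the filter, at 8.56 to 37.9 over the 8 arrays.

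Probe sets of 1 gene often differed. Those chosen for EIF3B, EIF5 and EIF5B carry the suffix that Affymetrix gives where probes may match other transcripts. Of 24 members with more than 1 probe set above the filter, 3 (EIF3J, EIF4G1 and EIF5A) had all of them called lower, 7 had none called, 13 had some called one way and some not, and 1, EIF3B, had calls both ways. Of 100 such probe sets of the members, 28 were lower and 6 higher, where 12% and 14.3% of all 22259 probe sets in the same fit were. EIF3M is an example of a dim probe set that goes its own way. At its 2 bright probe sets it differed by −0.27 and −0.32 and was not called, while a dim one went from 103 ± 24.3 to 228 ± 53.9 and was called higher (limma adjusted p = 0.01). The place of each probe set along its transcript was not used here.

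**Figure D3:**
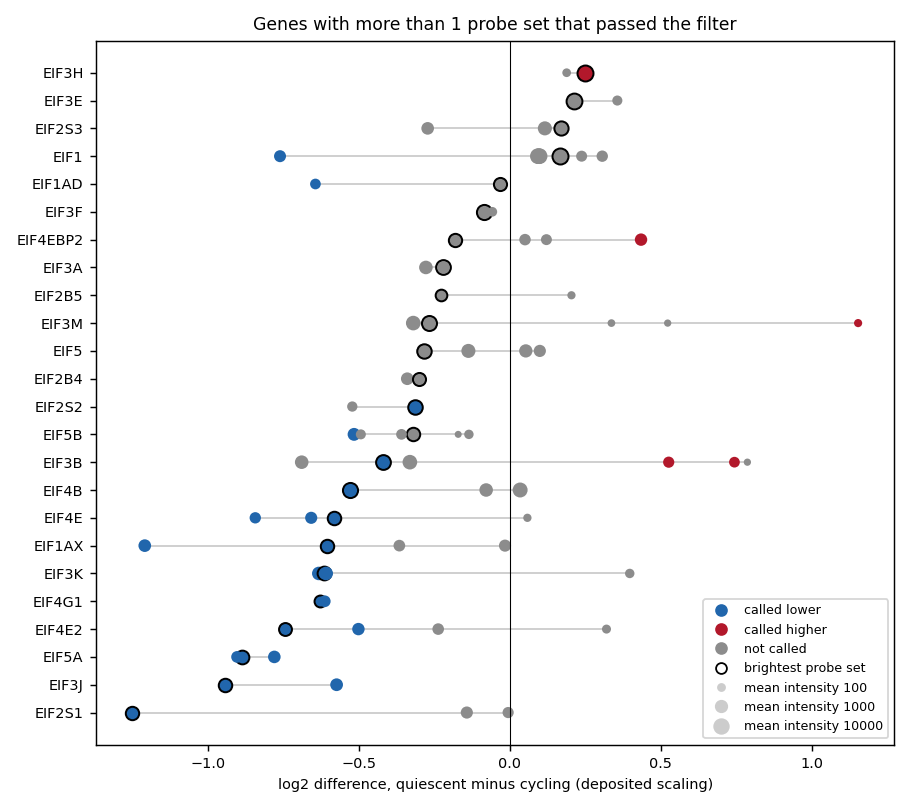
Log2 difference (quiescent minus cycling, deposited scaling, 4 arrays each) of each probe set above the filter, for the 24 members with more than 1. Colour gives the limma call over all probe sets, dot area the mean intensity, and a black ring the probe set that represents the gene. The probe sets of EIF3J, EIF4G1 and EIF5A are all blue, those of EIF3B lie on both sides of 0.

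Several members differed between sample numbers in both fractions. EIF4A3 measured 12308 on cycling and 8406 on quiescent arrays of sample 1, below all arrays of samples 2 to 4, which ran from 20479 to 21465 on cycling and from 14691 to 16401 on quiescent arrays. EIF5 was likewise lowest on sample 1 in each fraction, at 6817 and 5633, and so was EIF1AD, at 1817 and 2431. The same held for EIF2B5 and EIF4ENIF1. EIF4B, EIF5B and EIF3B were highest on sample 1 in each fraction, with EIF5B at 7149 on cycling against 3489 to 4357 on the other cycling arrays. EIF2D, EIF3E, EIF3I, EIF3K, EIF4E2, EIF4EBP2 and EIF5A were also highest on sample 1 in each fraction. Replicates have no order, and what a sample number shares between fractions is not stated in the labels. All of these genes were named after their values were seen, and how many of all genes do the same was not counted.

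Sequence at the annotated start was compared among members because many genes of the translation machinery carry a terminal oligopyrimidine tract, a C followed by pyrimidines at the very start of the mRNA, through which mTORC1 controls their translation. RefSeq windows (GRCh38.p14) of 300 bases, from 250 before each annotated start to 50 after, were held for 38 of the 45 members whose levels are given, and 33 of these are protein-coding genes that were tested. EIF2S2, EIF3A, EIF3E, EIF3G, EIF3H, EIF3L and EIF4EBP1 had no window. A C at the start followed by at least 4 pyrimidines was found on the gene's strand in 9 of the 33 (27.3%), against 7.14% of the 9459 genes tested that had a window and 4.07% of all 35116 windows. The 9 sequences are shown from 20 bases before to 20 from the start, with the tract in capitals.
EIF2A: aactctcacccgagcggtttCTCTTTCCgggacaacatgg (chr3:150546767-150546806, plus strand)
EIF2D: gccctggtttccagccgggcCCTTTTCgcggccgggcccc (chr1:206612446-206612485, minus strand)
EIF2S3: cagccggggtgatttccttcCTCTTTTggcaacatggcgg (chrX:24054936-24054975, plus strand)
EIF3D: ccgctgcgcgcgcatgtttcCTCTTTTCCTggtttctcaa (chr22:36529147-36529186, minus strand)
EIF3F: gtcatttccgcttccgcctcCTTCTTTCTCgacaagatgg (chr11:7987317-7987356, plus strand)
EIF3K: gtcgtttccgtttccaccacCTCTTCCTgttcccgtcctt (chr19:38619168-38619207, plus strand)
EIF3M: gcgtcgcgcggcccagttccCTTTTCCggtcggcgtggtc (chr11:32583811-32583850, plus strand)
EIF4A2: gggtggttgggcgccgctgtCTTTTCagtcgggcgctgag (chr3:186783557-186783596, plus strand)
EIF4B: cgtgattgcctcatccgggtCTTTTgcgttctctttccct (chr12:53006436-53006475, plus strand)
The starts of the 3 genes below, which fell most within eIF2, eIF2B and eIF3, are shown for contrast, with the first base in capitals.
EIF2S1: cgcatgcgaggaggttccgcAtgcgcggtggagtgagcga (chr14:67360308-67360347, plus strand)
EIF2B3: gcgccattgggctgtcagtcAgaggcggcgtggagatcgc (chr1:44986576-44986615, minus strand)
EIF3J: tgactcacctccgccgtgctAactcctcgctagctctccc (chr15:44537127-44537166, plus strand)

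Of the 9 members with a tract 2 were called lower, EIF3K and EIF4B, and of the 24 without one 11 were. The median log2 differences were −0.20 and −0.37. After quantile normalization 1 of 9 and 10 of 24 were lower, and after median centring 7 of 9 and 20 of 24. Over all genes tested, 14.8% of 675 with a tract and 16.7% of 8784 without one were lower, with medians of 0.072 and 0.061. EIF2S1, EIF2B2, EIF2B3, EIF3I, EIF3J, EIF4E, EIF4E2, EIF4G1, EIF5A and EIF1AX, of the 12 members lower in all 3 scalings, had no tract at an annotated start, EIF3K had one and EIF4EBP1 had no window. A tract in these letters is a description of the annotated start, which may not be the start used in these cells.

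**Figure D4:**
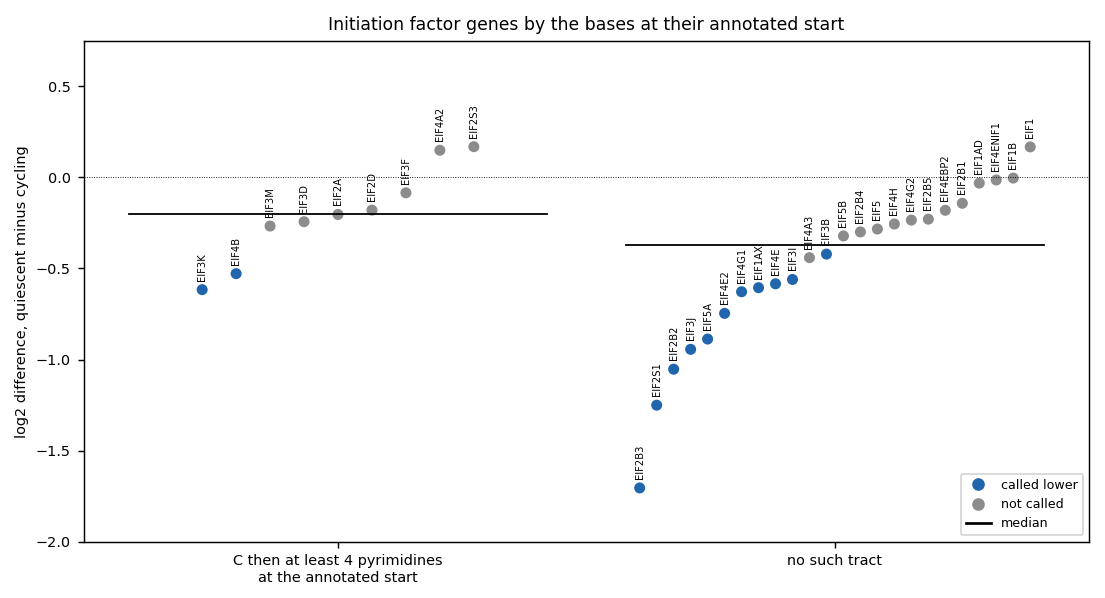
Log2 difference (quiescent minus cycling, deposited scaling) of the 33 protein-coding members with a RefSeq window, 9 with a C followed by at least 4 pyrimidines at an annotated start and 24 without. Blue marks genes called lower, grey those not called, and black lines the medians of −0.20 and −0.37. Of the blue genes, 2 have the tract.

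The E-box CACGTG, the same on both strands and the core site of MYC and related factors, was found in a window of 9 of the 33 members (27.3%), against 12.5% of all genes tested that had a window and 7.26% of all windows. The members are EIF1B, EIF2B3, EIF3F, EIF3K, EIF4A3, EIF4B, EIF4E, EIF4G1 and EIF4H. Of these 9, 5 were called lower, against 8 of the 24 without it, with median log2 differences of −0.53 and −0.26. After quantile normalization 4 of 9 and 7 of 24 were lower, and after median centring 8 of 9 and 19 of 24. Over all genes tested 18.8% with the E-box and 16.2% without it were lower. The sites of the cap-binding protein, its scaffold and the eIF2B gene that fell most are shown with the E-box in capitals. The genes shown were all called lower, and sites of EIF1B, EIF3F, EIF4A3 and EIF4H, which were not called, are not shown.
EIF4E: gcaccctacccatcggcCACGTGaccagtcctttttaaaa (chr4:98929336-98929375, minus strand)
EIF4E: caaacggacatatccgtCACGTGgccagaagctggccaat (chr4:98929183-98929222, minus strand)
EIF4G1: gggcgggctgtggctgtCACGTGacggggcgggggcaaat (chr3:184314445-184314484, plus strand)
EIF4G1: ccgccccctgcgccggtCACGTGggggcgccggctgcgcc (chr3:184314522-184314561, plus strand)
EIF2B3: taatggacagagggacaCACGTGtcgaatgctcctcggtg (chr1:44986752-44986791, minus strand)
No binding was measured, so a match describes these letters and not a bound site.

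Genes that regulate or continue initiation gave the setting for these values, from lists chosen with earlier results of these data known. Beside the counts of each list below, 15.4% of all genes tested fell and 12.2% rose. Of 13 tested genes of the eIF2 kinases and the stress response they drive, 1 fell and 1 rose, with a median of −0.0008. ASNS, asparagine synthetase and a target of the ATF4 factor, fell from 14698 ± 1640.0 (SD, n = 4) to 10087 ± 1042 (SD, n = 4) (−0.54, limma adjusted p = 0.00321). PPP1R15B, a subunit of the eIF2 phosphatase, rose from 1328 ± 322 to 1971 ± 315 (0.59, limma adjusted p = 0.0309), and did not pass after median centring. The 4 eIF2 kinase genes EIF2AK1, EIF2AK2, EIF2AK3 and EIF2AK4 were not called, at log2 differences of −0.065, 0.66, 0.29 and 0.42. ATF4, DDIT3, TRIB3 and CHAC1 did not pass either, at −0.20, −0.25, −0.0008 and 0.50. After median centring 6 of the 13 were lower and 0 higher, where 32.5% of all genes were lower. EIF2AK1, ATF4 and DDIT3 were among these, at −0.48, −0.61 and −0.66.

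Of 15 genes of mTORC1, the MNK kinases and other control of eIF4, 1 fell and 1 rose. DEPTOR, an inhibitor within the mTOR complexes, fell from 9796 ± 2017 (SD, n = 4) to 4515 ± 1021 (SD, n = 4) (−1.12, limma adjusted p = 4.97e-04). PDCD4, a protein that binds and inhibits the eIF4A helicase, rose from a dim 117 ± 42.2 (SD, n = 4) to 276 ± 81.2 (SD, n = 4), 1.25 on the log2 scale (limma adjusted p = 0.0101). Both were called in all 3 scalings. MTOR, RPTOR, RPS6KB1, MKNK1 and MKNK2 did not pass, at −0.37, 0.076, −0.17, 0.20 and 0.13. After median centring 5 of the 15 were lower and 1 higher, where 32.5% and 2.8% of all genes were. MTOR was then called lower, at −0.78 (limma adjusted p = 0.0283).

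Of 12 genes for poly(A) binding and other helpers of initiation, 4 fell and 1 rose. PAIP2B, which holds the poly(A)-binding protein away from mRNA, rose from 1108 ± 199 (SD, n = 4) to 2583 ± 318 (SD, n = 4) (1.23, limma adjusted p = 1.72e-04) and was called in all 3 scalings, while its paralog PAIP2 and PABPC1, the poly(A)-binding protein itself, differed by −0.028 and 0.10 and did not pass. ABCE1, which recycles ribosomes, the helicase DHX29 and EIF6, which keeps the large subunit from joining early, fell by 0.55, 0.64 and 0.54 (log2), and all of them were called in each of the 3 scalings. MCTS1 fell by 0.36, a call lost after quantile normalization. Of 7 elongation and release genes 2 fell and 2 rose. ETF1 and GSPT1, the termination factors eRF1 and eRF3a, fell by 0.90 and 0.58 and were called in all 3 scalings. GSPT2, the paralog of GSPT1, rose from 734 ± 192 (SD, n = 4) to 1240.4 ± 269 (SD, n = 4) (0.77), and EEF1A1, the elongation factor that brings tRNA to the ribosome, rose by 0.26. Neither rise passed after median centring, and that of EEF1A1 did not pass after quantile normalization either. Of the mitochondrial initiation factors, MTIF2 fell by 0.35, a call lost after quantile normalization, and MTIF3 differed by 0.23 and did not pass. After median centring 6 of the 12 helper genes and 3 of the 7 elongation and release genes were lower, against 32.5% of all genes.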

How the data were processed

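RNA of 4 quiescent and 4 cycling samples was measured on Affymetrix arrays; groups and sample numbers come from the titles. The deposited intensities are linear MAS5 values, per the submitters' processing notes, and the authors scaled each array to a trimmed mean of 500.1. Per the labels' protocols, Trizol was used to extract the RNA. Detection calls were not read, so dim signals may be background.

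Values below 1 were raised to 1 before log2 was taken. No further scaling was applied, since the values were already scaled and the array medians (71.9 to 113.4) lie in the dim range; median centring and quantile normalization are given beside it. Names come from the platform's annotation table, which may be out of date and gives 41097 probe sets 1 symbol, 1801 several and 11777 none; 41043 Entrez identifiers matched RefSeq (GRCh38.p14) and no symbol changed. Of 19775 genes, 8097 were left out as dim and 11678 were tested. The test was lmFit and eBayes (trend, robust) from limma 3.58.1 (R 4.3.3) with no covariate, and p-values were adjusted by Benjamini-Hochberg at 0.05. Single probe sets were tested in a fit over all probe sets above the filter. Python 3.11.15, pandas 2.3.3 and matplotlib 3.10.9 made the tables and plots.

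In simulated data for this comparison and its 11678 genes, a change of 2-fold was given to 100 and of 4-fold to 100. Of these, 60% and 85% were recovered, with 12 false calls. In the deposited scaling 1802 genes were called lower and 1430 higher. Recovery with that many changed genes was not tested. Sample numbers were not treated as pairs: deviations from group means of same-numbered samples correlated at 0.34, 0.20, 0.11 and 0.036. Between samples of different numbers these correlations ran from −0.17 to 0.14.

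The members and lists were chosen with earlier results of these data known. Genes given on every array are the called members of each group with the largest differences, up to 3 in each direction, and fixed genes whatever their result: EIF2S1, EIF3A, EIF3E, EIF4E, EIF4A1 (not analysed here), EIF4A2, EIF4G1, EIF4EBP1, EIF4EBP2, EIF5A and EIF1. Others given so are named for a contrast seen in the data. Planned identities and motifs of proteins were not computed, since no protein sequences were used here. Alternatives were no filter, a filter at the 75th percentile, both scalings, adding 32 before log2, eBayes without trend and robust, the mean over a gene's probe sets, the sample number as a block, and leaving out each array.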

Additional observations from a re-analysis of the deposited data

Results flagged for a closer look

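In 84 groups of 4 arrays (42 members in each fraction), 6 values lay apart from the other arrays of their group by Dixon's criterion, and chance alone gives about 1 in 20 groups, or 4.2. EIF4A3 was low on sample 1 in both fractions, at 12308 on the cycling and 8406 on the quiescent array. EIF4EBP2 was high on cycling sample 1, at 4267 against 3833 to 3888 on the other cycling arrays. EIF3A was high on quiescent sample 2, at 12610.0 against 10438 to 10652, and EIF1 was low on the same array, at 33101 against 38514 to 38873. EIF1B-AS1, a dim noncoding transcript, was at 23.9 on cycling sample 4 and at 96.3 to 126 on the other cycling arrays.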

How the results depend on the processing

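Of the 43 members tested, 15 were lower and 2 higher in the deposited scaling, the 2 being EIF3H and the noncoding EIF3J-DT. Median centring gave 33 lower and 0 higher, with 4 of 5 eIF2, 10 of 12 eIF3 and 7 of 8 eIF4 genes lower, by its construction, since it moves every difference by −0.41. Quantile normalization gave 12 lower and 3 higher, with 1 eIF2, 3 eIF3 and 3 eIF4 genes lower. Without the filter 13 were lower and 1 higher, with 2 eIF2, 4 eIF3 and 3 eIF4 genes lower. The fit by eBayes without trend and robust gave 12 lower and 1 higher, with 1 eIF2, 3 eIF3 and 3 eIF4 genes lower. The mean over probe sets gave 11 lower and 1 higher, with 1 eIF2, 3 eIF3 and 1 eIF4 gene lower. The cause was not tested. The filter at the 75th percentile and adding 32 before log2 gave the same counts as the deposited scaling. With a single array left out, 10 to 15 were lower and 1 to 3 higher, with 1 to 2 eIF2, 3 to 5 eIF3 and 2 to 4 eIF4 genes lower. Fewest members were lower without cycling sample 3 (10). No 4E-binding gene was called higher in any of these. With the sample number as a block, which the labels do not explain, 19 were lower and 2 higher, with 2 eIF2, 4 eIF3 and 6 eIF4 genes lower, and not every sample correlated best with its own number. The 4 members added were EIF2B4, EIF4A3, EIF4H and EIF5. The difference of EIF3B reversed to 0.10 with the mean over probe sets, and that of EIF3H to −0.16 with median centring. The number of arrays and dim signals limit what could be called.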
